A study of Mus musculus with 6 samples.

Results

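The genes described here are the heat shock proteins and molecular chaperones of MPC5 cells, a mouse podocyte line that divides or differentiates depending on its culture conditions. They were chosen by gene symbol. The choice takes the Hsp70, Hsp110, cytosolic Hsp90, small heat shock (Hspb) and J-protein (Dnaj) families, the chaperonins and prefoldins, the BAG proteins, Hsf1 and Hsf2, a few Hsp90 cochaperones and Serp1. Hspa5 was left out. Of the 9120 genes in the table, 81 carried such a symbol, and 76 of these passed the filter on low values (at least 1 FPKM in 3 or more of the 6 libraries) and were tested. Dnajc18, Bag4, Hspa1l, Dnajb4 and Hspb6 were listed below that level and were not tested.

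By their usual location 55 of the 81 genes were placed in the cytosol, 13 in the endoplasmic reticulum (ER), 7 in mitochondria, 3 in the nucleus and 3 elsewhere. The numbers tested were 51, 12, 7, 3 and 3 in that order. The location was set by hand from general knowledge of each protein, and some of these proteins move between compartments.

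Chaperones bind unfolded or partly folded proteins and let them fold without clumping together. Hsp70 proteins do this in cycles of ATP hydrolysis: a J-protein brings the client and starts hydrolysis, and an Hsp110 or BAG protein helps release the nucleotide. Some clients then pass to Hsp90, to the ring-shaped chaperonin TRiC, or, in mitochondria, to the Hsp60 ring. Heat shock factor 1 (Hsf1) switches on many of these genes when unfolded protein accumulates, and Dnajb1, the Hsp40 of the cytosol, is among its best known targets. Podocytes carry a large actin skeleton, and TRiC and prefoldin fold actin and tubulin.

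RNA was sequenced from 3 libraries of cells transfected with small interfering RNA (siRNA) against Mettl3, the catalytic subunit of the m6A RNA methyltransferase, and from 3 libraries of cells transfected with scrambled siRNA. The cells of both groups were kept in high glucose (30 mM) and carry no other stated genetic change than that of the line. Before transfection the cells of all libraries had been grown at 33 °C. They were then held for 7 days at 37 °C without interferon gamma, the condition under which this line stops dividing and differentiates. The transfection time was 6 h in all libraries. Values are FPKM, fragment numbers corrected for transcript length and library size, so levels can be compared between genes on a per-length scale. In bulk RNA such as this, fewer cells of a kind and less RNA per cell cannot be told apart.

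Mettl3 was at 3.68, 3.85 and 3.90 FPKM in the knockdown libraries, against 5.87, 6.34 and 5.75 FPKM in the control libraries, with no overlap between groups. The 6 libraries had FPKM totals of 173721 to 176526, and the number of reads behind each value is unknown. Of 14 podocyte markers 8 were in the table, and 6 of these passed the filter. Actn4 was at 104 to 113 FPKM, Vegfa at 48.2 to 66.9 FPKM and Tjp1 at 44.3 to 54.0 FPKM over the libraries. Cd2ap was at 11.5 to 15.4 FPKM, Dach1 at 2.59 to 6.14 FPKM and Magi2 at 1.88 to 2.90 FPKM. Wt1 was below 1 FPKM in every library, and Synpo in all but the first control library. The markers not in the table are not analysed here. The third replicate differed from the other libraries of its group, in knockdown and control cells alike. The 2 libraries carry codes in their titles without the prefix HG that the other 4 have, although their labels give the same high glucose treatment. The sources used here do not say what the codes stand for. Counts and medians are therefore given for all 6 libraries and for the 4 HG-coded libraries alone.

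The chaperone genes had a higher median level than the table as a whole. It was 9.44 FPKM over the 6 libraries, against 5.49 FPKM over all listed genes. Summed FPKM of the 81 genes was 2559, 2582 and 2321 in the knockdown libraries, against 2487, 2541 and 2168 in the control libraries. In both groups the third replicate had the lowest sum. The knockdown library had the higher sum in each of the 3 same-numbered pairs, and the groups overlapped. The sum was between 1.24% and 1.48% of all FPKM in a library.

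A small number of genes held much of this sum. Hspa8, the constitutive Hsp70 of the cytosol (Hsc70), was the highest, at 401, 399 and 408 FPKM in knockdown cells against 402, 439 and 352 FPKM in controls. Hspd1 (Hsp60, the mitochondrial chaperonin), Hspa9 (mortalin, the mitochondrial Hsp70), Hspa4 (an Hsp110 nucleotide exchange factor) and Stip1 (Hop, which links Hsp70 to Hsp90) followed, with means over all libraries of 156, 139, 121 and 117 FPKM. These 5 genes took between 36.8% and 40.1% of the members' sum. At the other end 6 of the 81 genes had a mean under 1 FPKM. The plot of mean levels by class shows the chaperonin TRiC as a compact group, all 8 subunits within one order of magnitude, and the J-proteins spread widely, from 0.678 FPKM for Dnajc18 to 57.6 FPKM for Dnaja2.

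**Figure D1:**
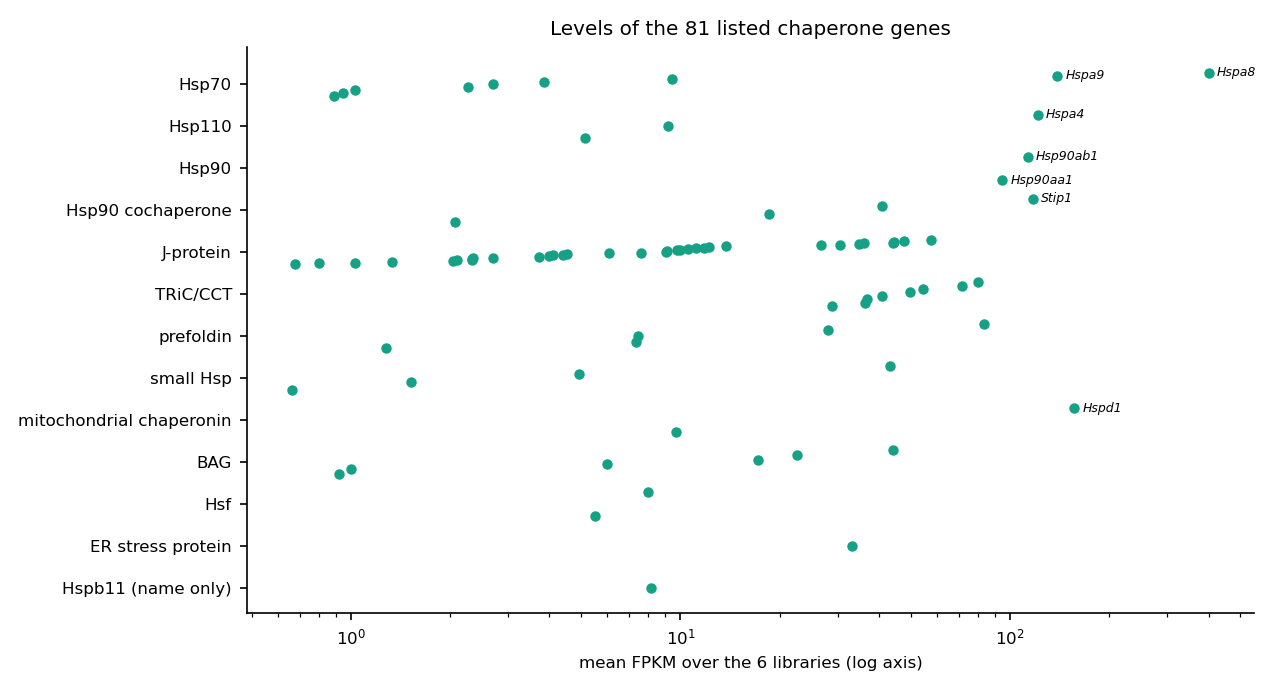
Mean FPKM over the 6 libraries (log axis) of each of the 81 listed chaperone genes, 1 point a gene, by class from top to bottom; genes above 90 FPKM are named. Hspa8 stands at the right end at 400.1 FPKM, and no J-protein reaches the level of Hsp90aa1 or Hsp90ab1.

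Dnajb1 was higher in each knockdown library than in each control library. It stood at 17.1, 15.4 and 15.8 FPKM in the knockdown libraries and at 7.71, 10.1 and 7.00 FPKM in the control libraries. The groups did not overlap, and the lowest knockdown library was 1.53 times the highest control library. The means were 16.1 ± 0.846 FPKM in knockdown cells and 8.27 ± 1.63 FPKM in control cells (SD, n = 3 each), a ratio of 1.95. On the log2(FPKM + 1) scale the difference was 0.90 (SE 0.14, 95% interval 0.57 to 1.22). Its unadjusted p in limma was 0.000335, and its adjusted p over the 8047 genes tested was 0.80, so the difference did not pass the threshold of 0.05. An exact two-sided permutation test over the 6 libraries gave p = 0.1, the smallest that 3 libraries against 3 allow. The difference of Dnajb1 was already known when these genes were chosen.

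The difference of Dnajb1 was present in each same-numbered pair. It was 1.07 on the log2 scale in the third pair and 0.81 between the HG-coded libraries of the 2 groups. The interaction of knockdown and code form was 0.26 (limma unadjusted p = 0.33). A fit that kept the replicate number as a block gave Dnajb1 a limma adjusted p of 0.24, and one with the code form as covariate gave 0.11.

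Dnajb1 lies on chromosome 8 (83608193 to 83612653, plus strand, GRCm38). The stretch just upstream of its RefSeq start (GRCm38.p6, chr8:83607972-83608174, plus strand) is shown because this gene had the smallest p of the chaperone genes. It was searched for GAANNTTC or TTCNNGAA, exact short forms of the heat shock element, the site bound by Hsf1. Matches are given in capitals in the sequences here, and this stretch has none. Inexact forms were not searched, so the lack of a match does not show that the gene has no Hsf1 site.
Dnajb1: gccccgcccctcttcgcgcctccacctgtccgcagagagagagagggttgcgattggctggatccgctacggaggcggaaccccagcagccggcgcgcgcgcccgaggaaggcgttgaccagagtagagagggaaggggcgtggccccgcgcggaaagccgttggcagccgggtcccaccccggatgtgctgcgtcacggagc

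**Figure D2:**
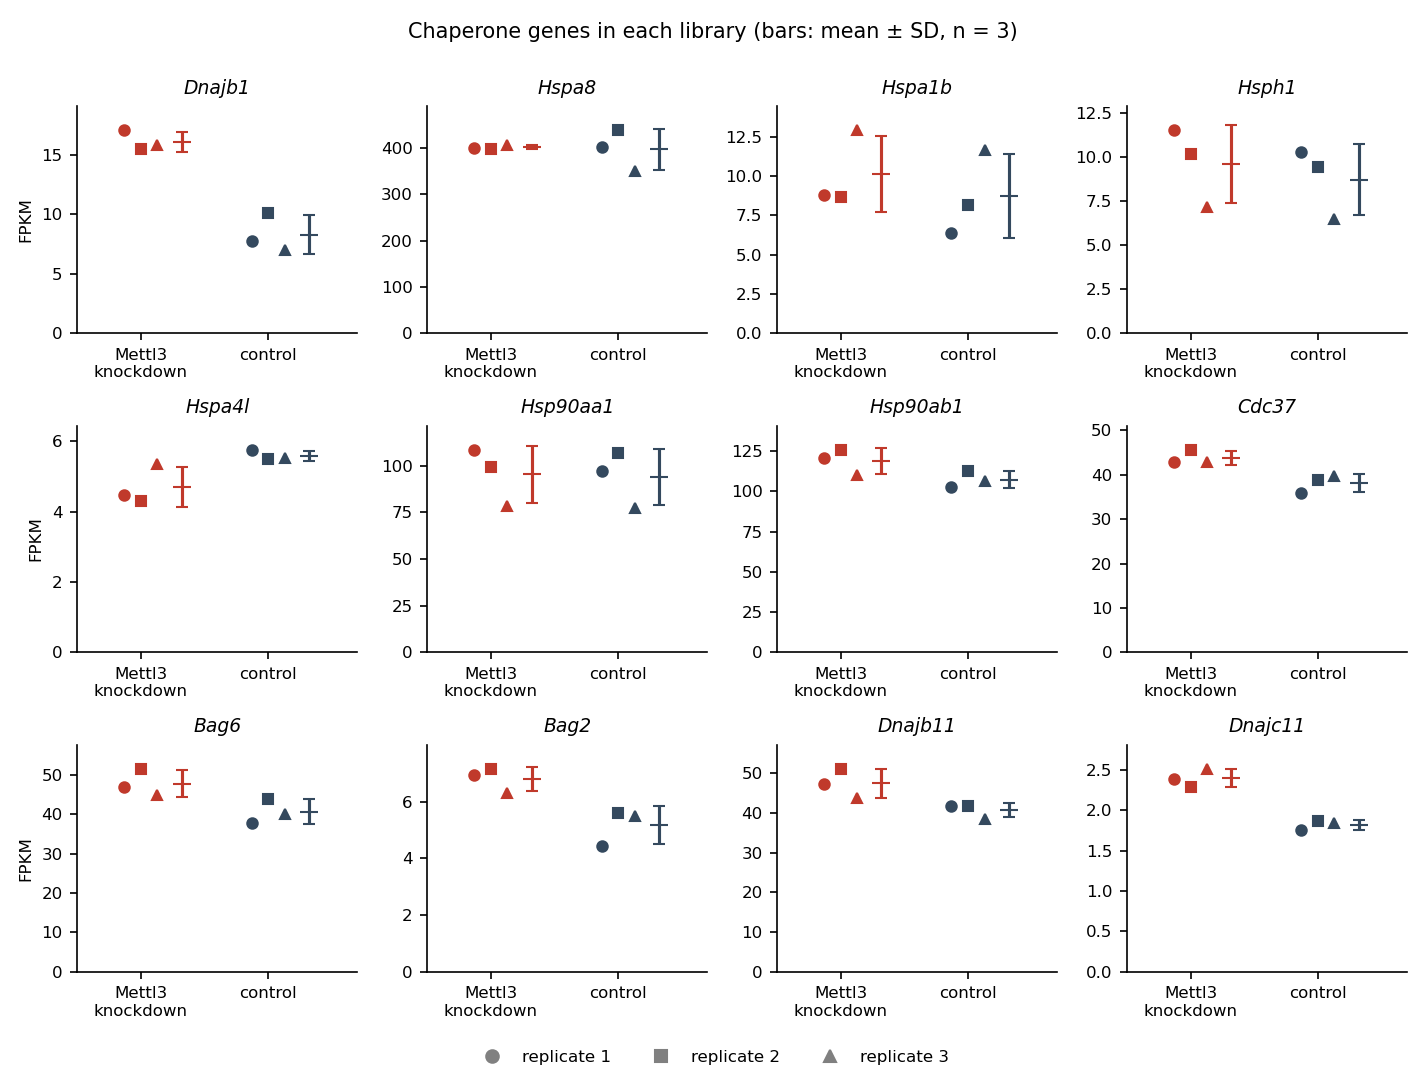
FPKM of 12 chaperone genes in each library (vertical axes, each from 0), Mettl3 knockdown left of control in each panel; symbols give the replicate number and bars the mean ± SD of 3 libraries. Dnajb1 is separated widely, while Hspa8, Hspa1b, Hsph1 and Hsp90aa1 overlap between the groups.

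The partners of Dnajb1 in the cytosol did not separate the groups as it did. Hspa8 differed by 0.023 on the log2 scale (SE 0.096). The stress-inducible Hsp70 gene Hspa1b was at 8.81, 8.65 and 12.9 FPKM in knockdown libraries, against 6.40, 8.17 and 11.7 FPKM in control libraries. The knockdown library was the higher of each same-numbered pair, but the groups overlapped (log2 difference 0.21, SE 0.23, limma unadjusted p = 0.40). Its near-identical copy Hspa1a was at 2.10, 2.16 and 3.41 FPKM in knockdown libraries, against 1.47, 1.94 and 2.50 FPKM in control libraries (0.25, SE 0.20). How reads were shared between these copies is not given, so the level of each is uncertain.

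Hsph1 (Hsp105), the stress-inducible Hsp110, was at 11.5, 10.1 and 7.13 FPKM in knockdown cells, against 10.3, 9.40 and 6.47 FPKM in controls. Its log2 difference was 0.12 (SE 0.21). Hspa4l, an Hsp110 related to Hspa4, was the one chaperone gene lower in every knockdown library than in every control, at 4.47, 4.30 and 5.35 FPKM, against 5.76, 5.50 and 5.52 FPKM in controls. The groups of Hspa4l did not overlap, and its log2 difference of -0.21 (SE 0.11) had a limma unadjusted p of 0.0945.

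The genes for the heat shock factors differed less. Hsf1 was at 7.75, 8.34 and 7.52 FPKM in knockdown libraries and at 8.38, 8.56 and 7.23 FPKM in control libraries, which overlapped (-0.028, SE 0.10). Hsf2, a related factor, was at 4.73, 5.74 and 5.68 FPKM in knockdown libraries and at 5.74, 5.52 and 5.57 FPKM in control libraries (-0.053, SE 0.11). The activity of Hsf1 is set mainly at the protein level, which was not measured here.

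Hsp90 matures kinases and steroid receptors with the help of cochaperones. Hsp90ab1, the constitutive form, was at 121, 126 and 110.1 FPKM in knockdown cells, against 102, 113 and 106 FPKM in controls. It was higher in each of the 3 pairs but the groups overlapped (0.15, SE 0.084, limma unadjusted p = 0.12, or unadjusted p = 0.0427 with the replicate block). Hsp90aa1, the inducible form, was at 108, 99.0 and 78.4 FPKM in knockdown cells, against 97.0, 107 and 77.5 FPKM in controls (0.022, SE 0.16).

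Cdc37, which brings kinases to Hsp90, was at 43.0, 45.6 and 42.8 FPKM in knockdown libraries, against 35.8, 38.8 and 39.8 FPKM in control libraries. All knockdown libraries lay above all controls, by a log2 difference of 0.20 (SE 0.080, limma unadjusted p = 0.0444). Stip1 was at 119, 124 and 96.9 FPKM in knockdown libraries and at 125, 137 and 101 FPKM in control libraries, which overlapped (-0.093, SE 0.14).

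BAG proteins release nucleotide from Hsp70 and steer its clients. Bag2, which holds back the ubiquitin ligase CHIP, was at 6.92, 7.14 and 6.32 FPKM in knockdown libraries, against 4.42, 5.61 and 5.50 FPKM in control libraries. Bag6, which guards newly made membrane proteins, was at 47.1, 51.5 and 44.8 FPKM in knockdown libraries, against 37.9, 44.1 and 40.1 FPKM in control libraries. Neither gene overlapped between groups.

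The log2 difference was 0.34 for Bag2 (SE 0.12, limma unadjusted p = 0.0239) and 0.23 for Bag6 (SE 0.094, unadjusted p = 0.0459). Bag3, the stress-inducible member that directs clients to autophagy, was at 17.5, 18.8 and 16.3 FPKM in knockdown cells and at 14.5, 17.4 and 18.6 FPKM in controls (0.059, SE 0.12). Bag1, which couples Hsp70 to the proteasome, was at 23.9, 20.7 and 26.9 FPKM in knockdown cells and at 22.9, 21.4 and 19.6 FPKM in controls (0.15, SE 0.12). Both overlapped between the groups, and both differences depended on the libraries used. In the HG-coded libraries alone that of Bag1 was 0.0064 and that of Bag3 was 0.18. Leaving out 1 library at a time moved Bag1 between 0.062 and 0.24, and Bag3 between -0.038 and 0.13.

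Small heat shock proteins hold unfolded protein without using ATP. Hspb2, a small heat shock protein best known from muscle, was at 2.30, 1.85 and 2.75 FPKM in knockdown libraries, against 0, 1.24 and 0.976 FPKM in control libraries. The groups did not overlap, and the log2 difference was 1.00 (SE 0.31, limma unadjusted p = 0.0142). The value of 0 can be a failed estimate. Without that control library the difference was 0.64, and with a pseudocount of 0.1 in place of 1 it was 2.17. Hspb2 shares 252 exon bases with Cryab on the opposite strand, and the sources used here do not say how strand was handled. Cryab (alpha B-crystallin) was at 1.66, 0.916 and 4.40 FPKM in knockdown libraries and at 0.354, 0.989 and 3.71 FPKM in control libraries. Part of the signal of either gene may come from the other. Hspb1 (Hsp27) was at 34.4, 36.5 and 59.9 FPKM in knockdown libraries and at 36.5, 33.8 and 58.5 FPKM in control libraries, and separated by replicate rather than by group.

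The ring of TRiC/CCT is built from 8 different subunits, and prefoldin hands it actin and tubulin. Of the TRiC subunits 7 of 8 had a log2 difference above 0, where 54.7% of all genes tested did. Their median was 0.094, and none passed the threshold. Cct4 had the smallest unadjusted p of them. It was at 45.5, 44.6 and 41.3 FPKM in knockdown cells, against 34.5, 42.4 and 36.2 FPKM in controls, with overlap (0.22, SE 0.10, limma unadjusted p = 0.0689, or unadjusted p = 0.0359 with the replicate block). Cct6a was at 38.3, 41.7 and 33.6 FPKM in knockdown cells, against 34.6, 36.9 and 32.1 FPKM in controls (0.13, SE 0.11). The one subunit below 0 was Tcp1, the first subunit to be named.

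Of the prefoldin genes 4 of 5 had a difference above 0, where 54.7% of all genes tested did. Pfdn1 was at 91.6, 90.3 and 79.0 FPKM in knockdown cells, against 86.2, 82.0 and 71.2 FPKM in controls. It was higher in each pair, and the groups overlapped (0.12, SE 0.10, limma unadjusted p = 0.27, or unadjusted p = 0.0475 with the replicate block). Pfdn4 was at 1.75, 1.17 and 0.0132 FPKM in knockdown cells, against 1.57, 1.51 and 1.67 FPKM in controls. Its log2 difference of -0.50 (SE 0.35) rests on the near-zero value of 1 knockdown library, and in the HG-coded libraries alone it was -0.056.

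Several of the J-proteins of the ER, though not all, work with the Hsp70 BiP. Dnajb11 (ERdj3), a soluble J-protein that binds nascent secretory proteins, was at 47.4, 51.0 and 43.9 FPKM in knockdown libraries, against 41.9, 41.7 and 38.6 FPKM in control libraries. The groups did not overlap, and the difference was 0.21 on the log2 scale (SE 0.088, limma unadjusted p = 0.0450, or unadjusted p = 0.0112 with the replicate block). Dnajc25, a membrane J-protein, was at 4.74, 5.09 and 4.24 FPKM in knockdown libraries, against 3.36, 3.52 and 3.71 FPKM in control libraries. Its groups did not overlap either (0.33, SE 0.11, limma unadjusted p = 0.0196). It shares 348 exon bases on the same strand with the model Gm20503, so its reads may be split. Of the 12 ER genes tested 7 had a difference above 0, where 54.7% of all genes tested did. Their median was 0.045, with a range from -0.11 to 0.33.

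Mitochondria import unfolded proteins with Hspa9 and fold them in the ring of Hspd1 with its lid Hspe1 (Hsp10). Dnajc11, a J-protein of the mitochondrial membranes, was at 2.39, 2.29 and 2.51 FPKM in knockdown libraries, against 1.75, 1.86 and 1.84 FPKM in control libraries. The groups did not overlap (0.27, SE 0.10, limma unadjusted p = 0.0373). Hspa9 was at 136, 138 and 138 FPKM in knockdown libraries and at 147, 140.3 and 136 FPKM in control libraries (-0.036, SE 0.069).

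In the chaperonin pair Hspd1 differed less between groups than within them. Hspd1 was at 184, 183 and 114 FPKM in knockdown cells and at 179, 172 and 107 FPKM in controls. Hspe1 was at 11.2, 10.3 and 9.33 FPKM in knockdown cells and at 9.48, 9.97 and 7.77 FPKM in controls. The log2 differences were 0.071 for Hspd1 (SE 0.26) and 0.17 for Hspe1 (SE 0.12), higher in each of the 3 pairs and with overlap for both. Of the 7 mitochondrial genes 4 had a difference above 0, with a median of 0.069, where 54.7% of all genes tested lay above 0.

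None of the 76 chaperone genes passed an adjusted p of 0.05 in limma, where 0% of the 8047 genes tested did. The adjusted p was 0.998 for each of the 75 other than Dnajb1. At an unadjusted p under 0.05, 8 chaperone genes were higher in knockdown cells and 0 were lower, where 2.45% of all genes tested were higher and 2.1% lower. The 8 were Dnajb1, Hspb2, Dnajc25, Bag2, Dnajc11, Cdc37, Dnajb11 and Bag6. The count was 2 when the first knockdown, the second knockdown or the first control replicate was left out. The 8 named genes are also those that were higher in every knockdown library than in every control, where 6.06% of all genes were. Hspa4l alone was lower without overlap, where 4.01% of all genes were. With the replicate block 11 chaperone genes had an unadjusted p under 0.05, all higher, where 5.64% of all genes tested were higher and 5.19% lower, and again 0 genes passed the adjusted threshold. With the code form as covariate 12 had one, all higher, where 6.36% of all genes tested were higher and 5.69% lower. By same-numbered pairs 25 of the 76 genes were higher in each of the 3 knockdown libraries, where 20.1% of all genes were, and 6 were lower in each, where 15.3% were.

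Markers of mesangial cells and fibroblasts had a higher sum by pair, most of it from the collagen genes Col1a1 and Col3a1. Their summed level was 2365, 2399.7 and 4210.5 FPKM in the knockdown libraries, against 1800.3, 1927 and 3916 FPKM in the control libraries. The knockdown library was higher in each of the 3 pairs and the groups overlapped. Of the 7 such genes tested 4 had a log2 difference above 0, where 54.7% of all genes tested did. Of the 7, 0 had a limma unadjusted p under 0.05. Col1a1 was at 1938.5, 1951 and 3285 FPKM in knockdown libraries and at 1464, 1601 and 3113 FPKM in control libraries. Col3a1, a fibrillar collagen, was at 364, 382 and 794 FPKM in knockdown libraries and at 267, 254 and 673 FPKM in control libraries. Pdgfrb was lower in the knockdown library of each pair, at 34.9, 34.0 and 28.9 FPKM against 36.4, 38.5 and 30.7 FPKM. The part of these markers in the chaperone differences between knockdown and control was not tested.

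The cytosolic, ER and mitochondrial groups all had medians near 0, far below the difference of Dnajb1. The median log2 difference was 0.070 in the cytosol, 0.045 in the ER and 0.069 in mitochondria, beside 0.017 over all genes tested. The numbers above 0 were 37 of 51, 7 of 12 and 4 of 7, and over the 76 genes 52, beside 54.7% of all genes tested. At an unadjusted p under 0.05 the numbers were 5, 2 and 1, each of them higher. Without Dnajb1 the median of the other 75 genes was 0.059. Among J-proteins alone the median was 0.048 in the cytosol (14 genes), 0.086 in the ER (10 genes) and 0.021 in mitochondria (4 genes).

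The next highest difference among J-proteins was 0.35 for Dnajc22, a gene listed at 0 in 1 control library. Differences between compartments have no test here, since genes are not replicates of a condition. In the HG-coded libraries alone the medians were 0.025 in the cytosol, 0.033 in the ER and 0.082 in mitochondria. There the count above 0 was 45 of 76, where 54% of all genes tested lay above 0. At an unadjusted p under 0.05 there were 10 higher and 3 lower, where 6.09% of all genes were higher and 5.98% lower.

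**Figure D3:**
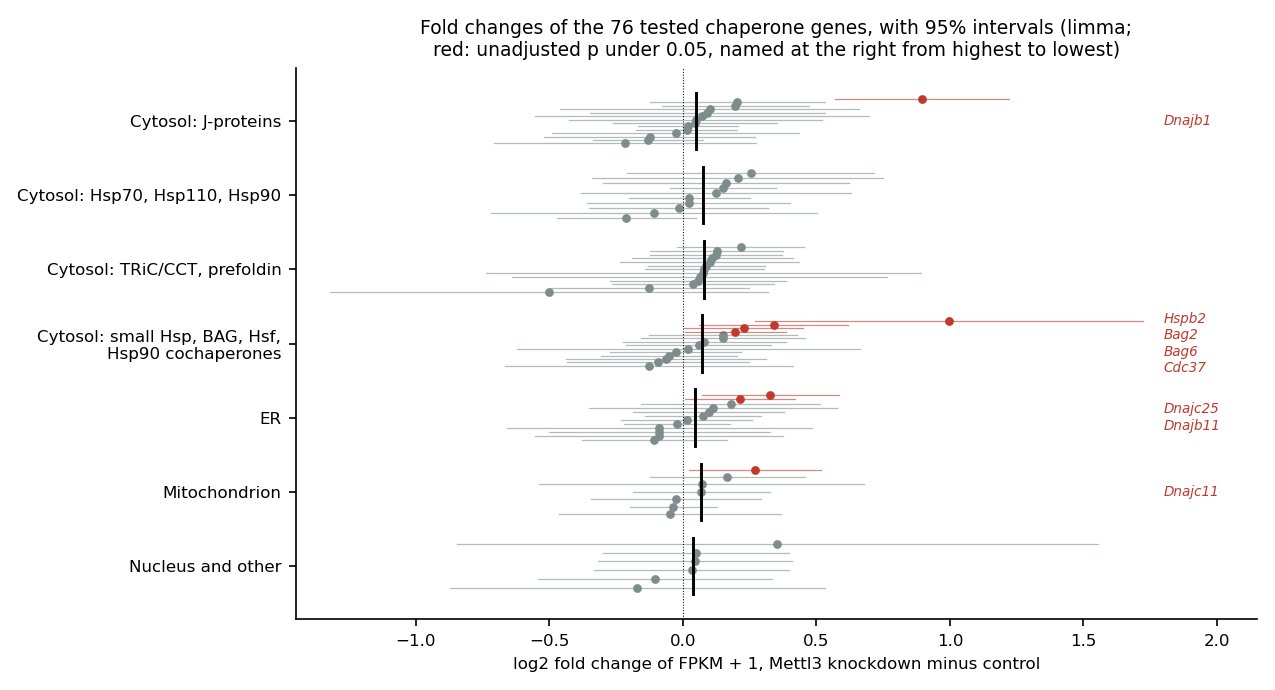
log2 fold change of FPKM + 1, Mettl3 knockdown minus control (horizontal axis), with 95% intervals from limma for the 76 tested chaperone genes, 1 row a gene, by compartment and class; vertical bars are group medians, and the 8 genes with an unadjusted p under 0.05 are in red. Each median lies close to 0, and Dnajb1 is the one J-protein whose interval starts above 0.5.

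For Hspb2 the log2 difference was 0.92 in the third pair and 1.03 in the HG-coded libraries. In the third pair 56 of 76 chaperone genes were higher in the knockdown library, with a median log2 difference of 0.093, where 52.7% of all genes tested were higher and their median was 0.012. The interaction compares that pair, 1 library a group, with the HG-coded libraries, which alone give the spread. It passed an adjusted p of 0.05 for 0 of 76 chaperone genes, where 0.0497% of all genes did. At an unadjusted p under 0.05 it took in 6 chaperone genes (Pfdn4, Dnajb12, Hspb8, Hspa8, Dnajc14 and Serp1, of which Dnajb12, Hspb8 and Dnajc14 are named after their values were seen), where 4.65% of all genes did. Of these 2 were above 0 and 4 below, where 2.27% of all genes were above and 2.37% below at that p. Whatever the p, the interaction was above 0 for 46 of 76 chaperone genes, where 48.5% of all genes were. That of Pfdn4 rests on the single value of 0.0132 FPKM.

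**Figure D4:**
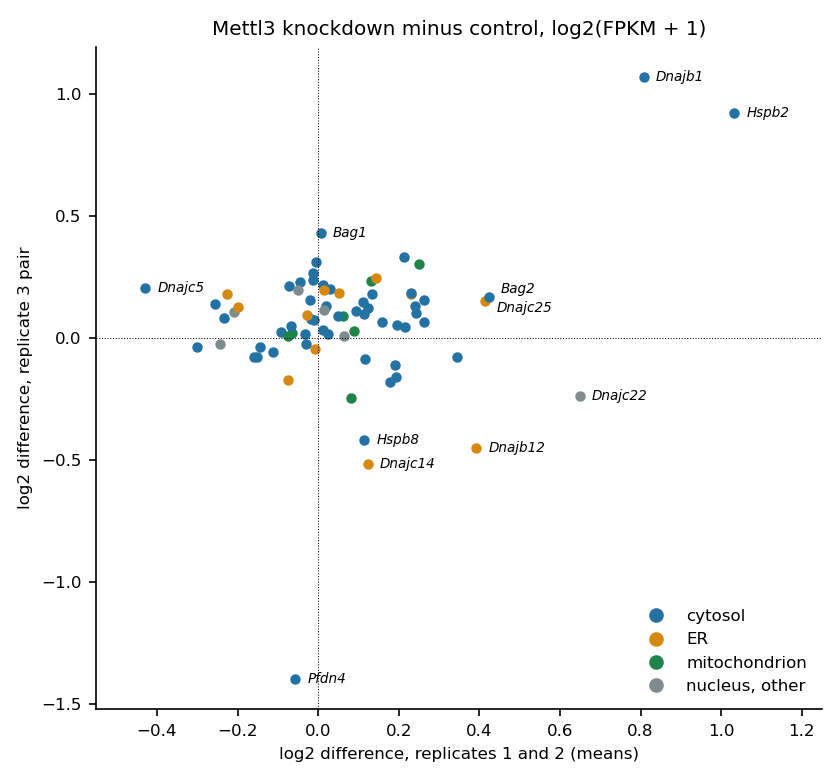
log2 difference of FPKM + 1, Mettl3 knockdown minus control, in the third pair (vertical axis) against that between the means of replicates 1 and 2 (horizontal axis) for the 76 tested chaperone genes, coloured by compartment. Dnajb1 (1.07 against 0.81) and Hspb2 lie at the upper right, and Pfdn4 lies far below 0 in the third pair alone.

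Other folding genes outside the chosen symbols were listed by compartment. Of 29 other ER folding genes tested, such as disulfide isomerases, 10 had a log2 difference above 0 and the median was -0.027. Of 23 other cytosolic folding genes 19 were above 0, with a median of 0.13. Of 14 mitochondrial ones 12 were above 0, with a median of 0.057. Over all genes tested 54.7% lay above 0. None of the 3 lists had a gene past the adjusted threshold.

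At an unadjusted p under 0.05 the ER list had Sdf2 higher and P4hb and Ppib lower, 3 of 29 genes, where 4.55% of all genes tested reached that p (2.45% higher and 2.1% lower). P4hb, the main protein disulfide isomerase, was at 142, 228 and 154 FPKM in knockdown cells, against 229, 246 and 260.3 FPKM in controls (-0.52, SE 0.18, limma unadjusted p = 0.0224). The groups of P4hb came close but did not overlap. Ppib, the ER cyclophilin, was at 66.0, 71.0 and 86.7 FPKM in knockdown cells, against 84.7, 92.0 and 98.1 FPKM in controls, with overlap (-0.30, SE 0.12, limma unadjusted p = 0.0396). Sdf2 was at 88.2, 94.5 and 89.4 FPKM in knockdown cells, against 84.1, 71.6 and 71.4 FPKM in controls, with none (0.26, SE 0.091, limma unadjusted p = 0.0241).

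In the cytosolic list Tbcb, a tubulin folding cofactor, was at 49.3, 75.9 and 50.0 FPKM in knockdown libraries, against 40.3, 40.3 and 45.5 FPKM in control libraries. It did not overlap (0.44, SE 0.17, limma unadjusted p = 0.0381). A list of 23 genes known to respond to Hsf1, which shares 17 genes with the chaperones here, had 17 above 0. Its median was 0.071, and 54.7% of all genes tested lay above 0. Dnajb1 was its one gene with an unadjusted p under 0.05.

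More chaperone genes separated the third replicates from the other 4 libraries than separated the groups. With knockdown in the model, 21 of 76 chaperone genes passed an adjusted p of 0.05 in limma, which is 27.6%, where 18.8% of all genes tested did. Of these 5 were higher in the third replicates, where 6.23% of all genes were, and 16 were lower, where 12.6% of all genes were. At an unadjusted p under 0.05, 31 differed, where 34.8% of all genes did. The third replicates and the others did not overlap for 33 of the 76 genes, or 43.4%, where 43.1% of all genes did not. The comparison has 2 libraries against 4, and the contrast is one of library codes, not of a stated treatment.

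The genes that rose in the third replicates were Hspb1, Serp1, Hspa1b, Hspb11 and Hspa1a. Hspb1 was at 59.9 and 58.5 FPKM in the third replicates of knockdown and control cells, against 34.4 and 36.5 FPKM in the other knockdown libraries and 36.5 and 33.8 FPKM in the other controls (0.73, SE 0.060, limma adjusted p = 0.00149). Serp1, a small protein of the ER translocon that protects unfolded membrane proteins, averaged 43.6 FPKM in the third replicates and 28.1 FPKM in the others (0.62, SE 0.088, adjusted p = 0.00695). Hspa1b averaged 12.3 FPKM in the third replicates and 8.01 FPKM in the others (0.57, SE 0.10, adjusted p = 0.0151).

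Hspb11 averaged 10.0 FPKM in the third replicates and 7.19 FPKM in the others (0.43, SE 0.098, limma adjusted p = 0.0311). It carries a heat shock name but encodes an intraflagellar transport protein. In each of these genes the third replicates of knockdown and control cells lay above all 4 other libraries. All 3 small heat shock genes tested had a difference above 0, where 40.1% of all genes tested did. Of them only Hspb1 passed the threshold. Hspb2 (0.35, SE 0.31, limma adjusted p = 0.47) and Hspb8 (0.24, SE 0.14, limma adjusted p = 0.26) overlapped between the third replicates and the others.

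The genes that fell in the third replicates included chaperonins of both compartments. Hspd1 was at 114 and 107 FPKM in the third replicates of knockdown and control cells, against 184 and 183 FPKM in the other knockdown libraries and 179 and 172 FPKM in the other controls (-0.70, SE 0.043, limma adjusted p = 0.000703). Cct7 averaged 18.9 FPKM in the third replicates and 33.7 FPKM in the others (-0.80, SE 0.073, adjusted p = 0.00227). Pfdn5 averaged 17.2 FPKM in the third replicates and 33.4 FPKM in the others (-0.92, SE 0.097, adjusted p = 0.00305). Pfdn5 shares 165 exon bases with Myg1 on the same strand, and Hspd1 shares 112 with Hspe1 on the opposite strand.

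Dnajc13, an endosomal J-protein, averaged 27.8 FPKM in the third replicates and 40.1 FPKM in the others (-0.51, SE 0.051, limma adjusted p = 0.00274). The other 12 were Dnajc9, Dnaja1, Hspa4, Dnajc8, Cct3, Tcp1, Hsph1, Cct8, Stip1, Hsp90aa1, Pfdn1 and Dnajc15. All 8 TRiC subunits and all 5 prefoldin genes had a difference below 0, of which 4 and 2 passed. Over all genes tested 40.1% had a difference above 0 in this comparison, so most genes lay below it. Of the 4 TRiC subunits that passed, Cct7, Cct8 and Tcp1 each share exon bases with a gene on the opposite strand.

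The compartments had different counts in this comparison, with no test between them. Of the cytosolic genes 3 rose and 12 fell, of the ER genes 1 rose and 0 fell, and of the mitochondrial genes 0 rose and 2 fell. The median log2 difference was -0.11 in the cytosol, -0.00039 in the ER and -0.23 in mitochondria, beside -0.064 over all genes tested. Dnajb1 was not among the genes that changed (-0.17, limma adjusted p = 0.38).

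Of the 23 genes listed as responding to Hsf1, 17 are among the chaperones already described. Of the other 6, 1 rose and 2 fell. Cryab rose (1.39, SE 0.21, limma adjusted p = 0.00856). Fkbp4, a cochaperone of Hsp90, fell (-0.39, SE 0.050, adjusted p = 0.00544), as did Hmox1, heme oxygenase (-0.50, SE 0.087, adjusted p = 0.0129). In the ER list of 29 genes tested Hsp90b1 (GRP94), the Hsp90 of the ER, fell (-0.38, SE 0.044, limma adjusted p = 0.00374). Calr, Ero1l, Pdia3 and Pdia4 also fell at a limma adjusted p under 0.05. Fkbp10, Edem1, Manf and Sil1 rose at that threshold, by 0.57, 0.58, 0.31 and 0.58. Of all genes tested 6.23% rose and 12.6% fell.

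The summed level of markers of mesangial cells and fibroblasts moved with this difference, and most of it came from Col1a1 and Col3a1. Their summed level, over the 7 of 8 genes in the table, was 4210.5 and 3916 FPKM in the third replicates of knockdown and control cells, against 1800.3 to 2399.7 FPKM in the other 4 libraries. Of the 7 genes 4 were higher and 1 was lower at a limma adjusted p under 0.05, where 6.23% of all genes were higher and 12.6% lower. Acta2 was at 58.8 and 56.8 FPKM in the third replicates of knockdown and control cells, against 14.5 to 17.3 FPKM in the others. Tagln was at 40.7 and 39.1 FPKM, against 8.45 to 15.4 FPKM. Pdgfrb was lower, at 28.9 and 30.7 FPKM, against 34.0 to 38.5 FPKM. Of the 8 endothelial, 8 tubule and 8 immune markers 1 each was in the table, all below 2 FPKM. The part of such markers in the chaperone differences was not tested.

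**Figure D5:**
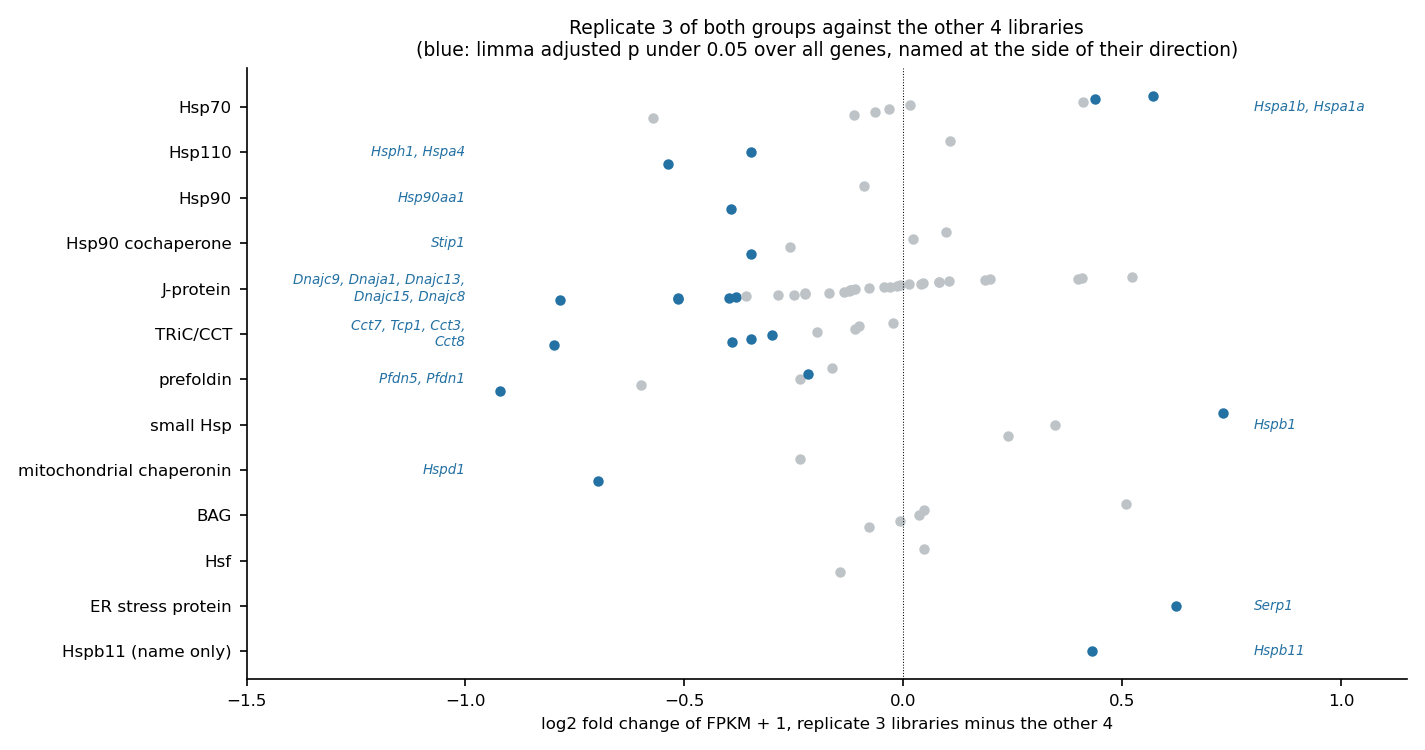
log2 fold change of FPKM + 1, the third replicates of both groups minus the other 4 libraries (horizontal axis), for the 76 tested chaperone genes by class; blue points have a limma adjusted p under 0.05 and are named at the side of their direction. All 8 TRiC and all 5 prefoldin points lie left of 0, and the 3 small heat shock points lie right of 0. Of all genes tested 40.1% had a difference above 0.

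The promoters of the chaperone genes were searched for exact forms of the heat shock element. Dnajb1, Hspa1b, Hspb1, Hsph1 and Hspe1 are textbook targets of Hsf1 and did not move together here. RefSeq promoters (GRCm38.p6) were at hand for 66 of the 81 genes, and the 250 bases before each start were scanned. The motif GAANNTTC or TTCNNGAA, each its own reverse complement, was found in 16 genes, or 24.2%, beside 14.5% of all genes with a promoter and 11.2% of the tested ones. The longer motif GAANNTTCNNGAA or TTCNNGAANNTTC, which contains the shorter one, was found in Dnajb6, Hspd1 and Hspe1, or 4.55%, beside 0.514% of all genes. The matches of Hspd1 and Hspe1 are the same bases of their shared promoter, counted for both genes. A match is a description of letters and not of a bound site.

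The stretches with matches are shown for 4 genes that differed in direction between the third replicates and the others. Hspa1b (chr17:34959239-34959488, minus strand) and Hspb1 (chr5:135887669-135887918, plus strand) were higher there. Hsph1 (chr5:149636351-149636380, minus strand) was lower, and Hspe1 (chr1:55088053-55088082, plus strand) lies in the shared promoter of the Hspd1 and Hspe1 pair, of which Hspd1 was lower. Sequences run 5′ to 3′ on the strand of the gene, with matches to either motif in capitals.
Hspa1b: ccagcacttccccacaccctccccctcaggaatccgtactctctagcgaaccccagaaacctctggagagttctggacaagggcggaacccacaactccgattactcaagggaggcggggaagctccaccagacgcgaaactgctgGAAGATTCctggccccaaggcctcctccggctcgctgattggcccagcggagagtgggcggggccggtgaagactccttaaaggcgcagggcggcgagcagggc
Hspb1: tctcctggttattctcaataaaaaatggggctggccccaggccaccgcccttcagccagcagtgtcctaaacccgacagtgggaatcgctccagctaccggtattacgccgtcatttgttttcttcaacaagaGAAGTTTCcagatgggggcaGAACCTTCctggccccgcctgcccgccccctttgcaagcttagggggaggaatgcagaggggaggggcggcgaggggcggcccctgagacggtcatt
Hsph1: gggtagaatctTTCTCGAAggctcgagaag
Hspe1: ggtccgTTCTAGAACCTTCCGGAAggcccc

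Both Hspb1 matches join GAA to TTC, and the Hspe1 stretch holds overlapping matches that alternate between the forms. Of the genes that rose in the third replicates at the adjusted threshold, Hspb1, Serp1, Hspa1b and Hspa1a had a match to the shorter motif. The match of the near-identical copies Hspa1a and Hspa1b lies at the same place in both. Hspb11 had no match or no promoter at hand. Of those that fell, Hspd1, Hsph1 and Dnaja1 had one. Cct7, Pfdn5, Dnajc13, Dnajc9, Hspa4, Dnajc8, Cct3, Tcp1, Cct8, Stip1, Hsp90aa1, Pfdn1 and Dnajc15 had no match or no promoter at hand. Of the tested genes with a promoter 11.2% had a match. Whether matches go with direction was not tested.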

How the data were processed

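The deposited table holds gene-level FPKM for 6 RNA-seq libraries, as the authors deposited them and as its header states. Per the submitters' processing notes, StringTie 1.2.2, HISAT2 2.0.4, cutadapt 1.17, FastQC 0.11.7 and R 2.10.0 were used, without stated roles. The notes give build mm9, but 76 of the 81 chaperone genes have exactly their GENCODE M21 span on GRCm38, so coordinates are given as GRCm38. Reads could not be recovered (at most 20.7% of the 150 lowest values per library came out whole, within a tolerance of 0.05), so depth and counting error are unknown. Of the 81 genes 36 share exon bases with another annotated model, and the sources used here do not state the rule for such reads.

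Libraries were grouped by title. Nothing in the labels says how far apart the cultures were, so p-values measure the spread between these libraries. Genes with at least 1 FPKM in 3 or more libraries were fitted as log2(FPKM + 1) with limma 3.58.1 in R 4.3.3 (intensity trend, two-sided), with Benjamini-Hochberg adjustment over the 8047 genes and a threshold of 0.05. Fold changes are on this scale and understate those of low genes. The third replicates were compared with the other libraries with knockdown in the model. The fit was tested on simulated data. Same-numbered libraries deviated together (correlations 0.23, 0.20 and 0.56 across genes), so a replicate block was also fitted, although crossed libraries of the first pairs correlated as well (0.26 and 0.23).

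The genes, lists and tests were chosen with earlier results of these data known. Named were Dnajb1, its partners and regulators, genes with an unadjusted p under 0.05 (under 0.1 where groups did not overlap), the 2 of smallest p in each compartment and in the TRiC/CCT, prefoldin, BAG and J-protein classes, the 5 highest, those listed at 0, the 4 of smallest adjusted p in each direction between the third replicates and the others, and folding genes of the other lists with an unadjusted p under 0.05. Alternatives changed the pseudocount, filter, normalization, variance model, covariates and libraries.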

Additional observations from a re-analysis of the deposited data

How the results depend on the processing

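The limma fit was repeated under 15 alternatives. Of 29 named chaperone genes 19 kept the sign of their difference between knockdown and control under each of them, and 0 passed the adjusted threshold under any. The log2 difference of Dnajb1 lay between 0.80 and 1.03, with adjusted p from 0.11 to 0.9998. Genes past the threshold numbered 0 in the fit as reported, 1 with a robust variance without trend, 2 in the HG-coded libraries alone and 0 to 2 when each library was left out. The replicate block gave 0 such genes, moved the count of chaperone genes higher at an unadjusted p under 0.05 to 11, and changed no other call. That count was 8 as reported, 5 with a filter at 5 FPKM, 4 with quantile normalization, 5 with the robust variance and 2 to 7 without a library. The lower count was 0 as reported, 3 in the HG-coded libraries alone and 0 to 1 without a library. The cause of these changes in count was not tested. Some of these fits had fewer genes or libraries, while quantile normalization and the robust variance used the same genes and libraries as the reported fit. Of the counts without a library, the 2 genes past the threshold came without the third knockdown or the second control replicate, and the 2 chaperone genes without the first or second knockdown or the first control replicate.

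The other 10 named genes changed sign under at least 1 alternative. Hspa8 was at -0.072 in the HG-coded libraries alone. Without a library the ranges were -0.062 to 0.097 for Hspa8, -0.055 to 0.30 for Hsph1, -0.11 to 0.15 for Hsp90aa1, -0.095 to 0.013 for Hsf1, -0.094 to 0.023 for Hsf2, -0.17 to 0.30 for Hspd1, -0.14 to 0.092 for Hspa4, -0.22 to 0.013 for Stip1, -0.038 to 0.13 for Bag3 and -0.30 to 0.68 for Dnajc22. Among those that kept their sign the range was -0.80 to -0.080 for Pfdn4, 0.062 to 0.24 for Bag1 and 0.64 to 1.22 for Hspb2. Over the same fits the mitochondrial median ran from -0.047 to 0.14, that of the cytosol from 0.018 to 0.11 and that of the ER from 0.011 to 0.063. The count of chaperone genes that differed in the third replicates was 18 to 23 under its alternatives. Unknown depth limits statements on genes near 1 FPKM.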

Other observations

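Dnajc22, a membrane J-protein, was at 2.32, 1.89 and 2.27 FPKM in knockdown libraries, against 0, 2.91 and 2.86 FPKM in control libraries. Its log2 difference was 0.35 (SE 0.51) with all libraries and -0.30 without the control library that is listed at 0. Of the chaperone genes 2, Hspb2 and Dnajc22, were listed at 0 in a library, both in the first control replicate.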
